A study of Sus scrofa with 8 samples.

Results

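Integrin and laminin subunit genes were examined in left ventricular RNA of 8 pigs, taken as every gene of the deposited table whose symbol is ITGA or ITGB followed by a number or by D, E, L, M, V or X, or LAMA, LAMB or LAMC followed by a number. The rule found 36 genes among 14718, of which 25 encode integrin chains (17 ITGA and 8 ITGB, ITGA2B included) and 11 encode laminin chains (4 LAMA, 4 LAMB and 3 LAMC). The mutant group held 4 gene-edited pigs of a long QT syndrome model, numbered 6 to 9, of which pigs 6, 7 and 8 carry the genotype label KCNH2 mutation and pig 9 carries the label KCNH3 mutation. The control group held 4 wild type (WT) pigs, numbered 1, 2, 4 and 5. The series design names KCNH2 alone, so the genes whose groups separated are also given without pig 9. The labels give no age, sex, litter or batch, and do not describe the edit, so the animals' zygosity and the protein made from the edited gene are unknown here.

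Integrins are cell surface receptors made of 1 alpha and 1 beta chain that link the cytoskeleton to the extracellular matrix. Laminins are trimers of an alpha, a beta and a gamma chain that form the basement membrane, the sheet of matrix around each cardiac myocyte and each capillary. In the heart, myocytes hold laminin mainly through integrin alpha 7 beta 1 and dystroglycan, while endothelial cells, fibroblasts and leukocytes use other integrins. ITGB6 encodes integrin beta 6, known mainly from epithelia, which pairs with the ITGAV product and can release latent TGF-beta.

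Libraries held 15.9 to 22.4 M reads (M is the SI prefix mega) in mutant pigs and 16.8 to 21.6 M in WT pigs, but genes of the mitochondrial genome took 15.9% to 27.5% of reads in mutant libraries and 31.7% to 87.9% in WT libraries. Reads of nuclear genes therefore numbered 12.7 to 16.2 M in mutant libraries and 2.53 to 12.9 M in WT libraries, with the fewest in pig 4 (2.53 M) and pig 5 (7.53 M). Values below are normalized counts, meaning a gene's reads divided by the authors' size factor for the library, and in pig 4 a single read is worth 4.84 of them. The summed level of the cardiomyocyte markers, of which 9 of 10 are in the table, was 735453 to 755881 normalized counts in mutant libraries and 474606 to 613406 in WT libraries, without overlap. The 9 genes did not differ alike. MYH7, the slow myosin heavy chain, averaged 256660 normalized counts in mutant and 127942 in WT libraries, without overlap. MYH6, the fast one, averaged 131352 in mutant and 36588 in WT libraries, but its groups overlapped. Mutant pig 6 had 7084 normalized counts of MYH6, below WT pigs 1, 2 and 4. RYR2 averaged 20864 in mutant and 5789 in WT libraries, without overlap. TNNT2, TNNI3 and MYL3, of the thin filament and myosin light chains, averaged 0.81, 0.64 and 0.97 times their WT means. None of the 9 was at 0 reads in any library. The groups overlapped in the other 12 of 13 marker lists. Bulk RNA cannot tell fewer cells of a type from less RNA per cell, and this holds for all values below. Pigs 8 and 9 were the most similar pair within a group, with a chi-square per gene of 12.1, where counting noise alone gives about 1, so they were kept as separate samples.

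Of the 36 genes, 34 passed the filter on low values (at least 10 normalized counts in at least 4 libraries). LAMB4 and ITGAD did not. None of the 34 passed limma at an adjusted p under 0.05, the test applied to log2(normalized count + 1) with Benjamini-Hochberg adjustment over all 11660 genes, where likewise 0% of genes passed. The smallest adjusted p among the 34 was 0.172, for ITGB6. At an unadjusted p under 0.05 stood 7 of the 34, against 13.9% of all genes tested. Of these 7, 4 were higher in mutant libraries (7.06% of all genes) and 3 lower (6.8% of all genes). Groups did not overlap for 4 of the 34, against 11.4% of all genes. These were ITGB6, ITGA6 and ITGA1, above WT as were 6.17% of all genes, and LAMC3, below WT as were 5.22%. Without pig 9 the same 4 genes separated, with log2 differences in limma of 2.31 for ITGB6, 1.98 for ITGA6, 0.69 for ITGA1 and -2.79 for LAMC3. On recovered whole reads edgeR called 0 of the 34, and 6 stood at an unadjusted p under 0.05, against 0% and 14.6% of 11878 genes. DESeq2 called 4, against 4.56% of all genes, with ITGB6 and ITGA6 higher (1.32% of all genes) and LAMC3 and ITGA2B lower (3.24%). ITGA8 and LAMA3 had no adjusted p in DESeq2 and could not be called. The authors' deposited table calls the same 4 genes, against 4.54% of all genes, of which 1.32% are higher and 3.23% lower. Integrin genes had a median log2 difference, mutant minus WT, of 0.40 over 24 and laminin genes one of 0.26 over 10, beside 0.12 over all genes tested. The laminin median changed sign with the fit, to -0.37 in edgeR and -0.04 with quantile normalization. In DESeq2 it was -0.21 when LAMA3 was left out, which had no adjusted p there. The log2 difference of LAMA3 was -0.89 in DESeq2 and -0.89 in edgeR.

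**Figure D1:**
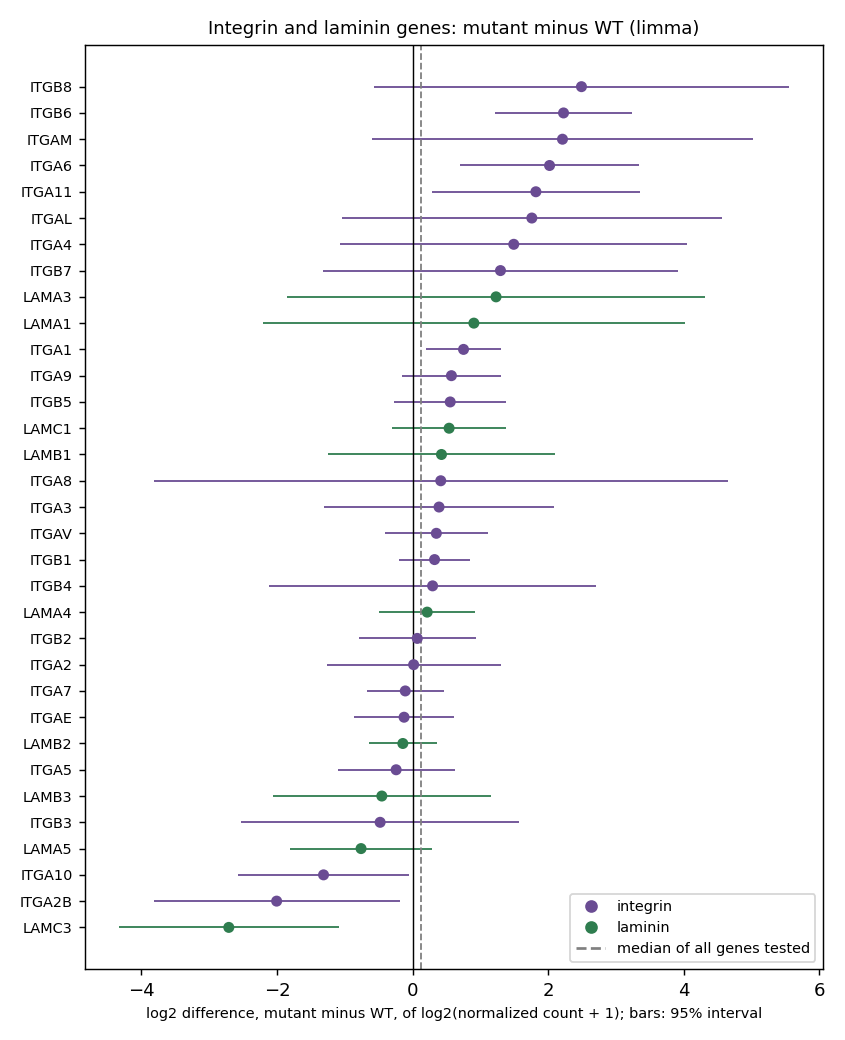
Log2 difference, mutant minus WT, for 33 of the 34 genes tested (y axis, ordered by difference), with the 95% interval from limma; the dashed line marks the median of all genes tested, 0.12. The intervals of ITGB6, ITGA6, ITGA11 and ITGA1 lie above 0 and those of LAMC3, ITGA2B and ITGA10 below 0, before adjustment for the number of genes.

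ITGB6 was higher in every mutant pig than in any WT pig. It had 1423, 602, 611 and 642 normalized counts in mutant pigs 6, 7, 8 and 9, and 233, 302, 111 and 87.4 in WT pigs 1, 2, 4 and 5. Pig 6 stood above the other mutant pigs, whose values lay close together, and the lowest WT values were those of pigs 4 and 5. The means were 820 ± 402 in mutant and 183 ± 102 in WT libraries (SD, n = 4 each), 4.47 times as high in mutant libraries. The log2 difference, which here and below is limma's difference of mean log2 values, was 2.23 ± 0.45 (SE; 95% interval 1.21 to 3.24; limma adjusted p = 0.172). An exact two-sided permutation test of ITGB6 alone over all 70 assignments of the 8 libraries gave p = 0.0286, the smallest p this design allows. Any gene whose groups do not overlap gives this p, and 11.4% of all genes have such groups. ITGB6 and the ratios tested below were chosen with earlier results of these data known. For ITGB6 the authors' deposited table has a log2 fold change of 2.15 with an adjusted p of 0.0017. DESeq2 called ITGB6 in 10 of 10 fits, made with all libraries, without each library in turn, and without pigs 4 and 5 together, with log2 differences of 1.59 to 2.50 and adjusted p of 0.00017 to 0.020.

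The depth behind these values differed, since pig 4 gave 23 ITGB6 reads and pig 5 gave 72, against 293 and 350 in pigs 1 and 2 and 793 to 2329 in mutant pigs. Per M reads of nuclear genes, ITGB6 stood at 62.4 in pig 7, the lowest mutant pig (Wilson 95% interval 58.2 to 66.9), and at 30.5 in pig 2, the highest WT pig (27.5 to 33.9). These intervals cover counting error only. Without pigs 4 and 5, the WT libraries with the highest mitochondrial share, the limma difference was 1.52. Without pig 6 it was 1.93, and without pig 9 it was 2.31. Epithelial markers were measured because ITGB6 is known from epithelia. Of that list 7 of 10 genes are in the table, and they summed to 273 to 501 normalized counts in mutant libraries and 192 to 1199 in WT libraries. The sum followed the keratin KRT8, which ran from 31.2 to 424 in mutant and from 18.2 to 1018 in WT libraries. CDH1, epithelial cadherin, had 94.7, 0.76, 2.15 and 3.97 normalized counts in mutant pigs 6, 7, 8 and 9, and 8.74, 1.73, 0 and 36.4 in WT pigs 1, 2, 4 and 5. It was thus highest in pig 6, the pig with the most ITGB6, and next highest in WT pig 5, the pig with the least. Among mutant libraries pig 6 had the lowest epithelial sum (273) and the lowest KRT8 (31.2). KRT18, KRT19, SFTPC and CLDN4 were at 0 in pig 6. The claudin CLDN7 ran from 51.0 to 147 in mutant libraries, highest in pig 6, and from 52.7 to 218 in WT libraries. CLDN4 ran from 0 to 7.28 in mutant libraries and had 0 reads in every WT library. KRT18, KRT19 and SFTPC had at most 5.32 in mutant libraries, while KRT19 reached 120 in WT libraries. The cardiomyocyte marker sum, in which MYH7 separated the groups and MYH6 did not, and the mitochondrial share also separated the groups. The part of the epithelial markers, of that sum and of the mitochondrial share in the ITGB6 difference was not tested.

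**Figure D2:**
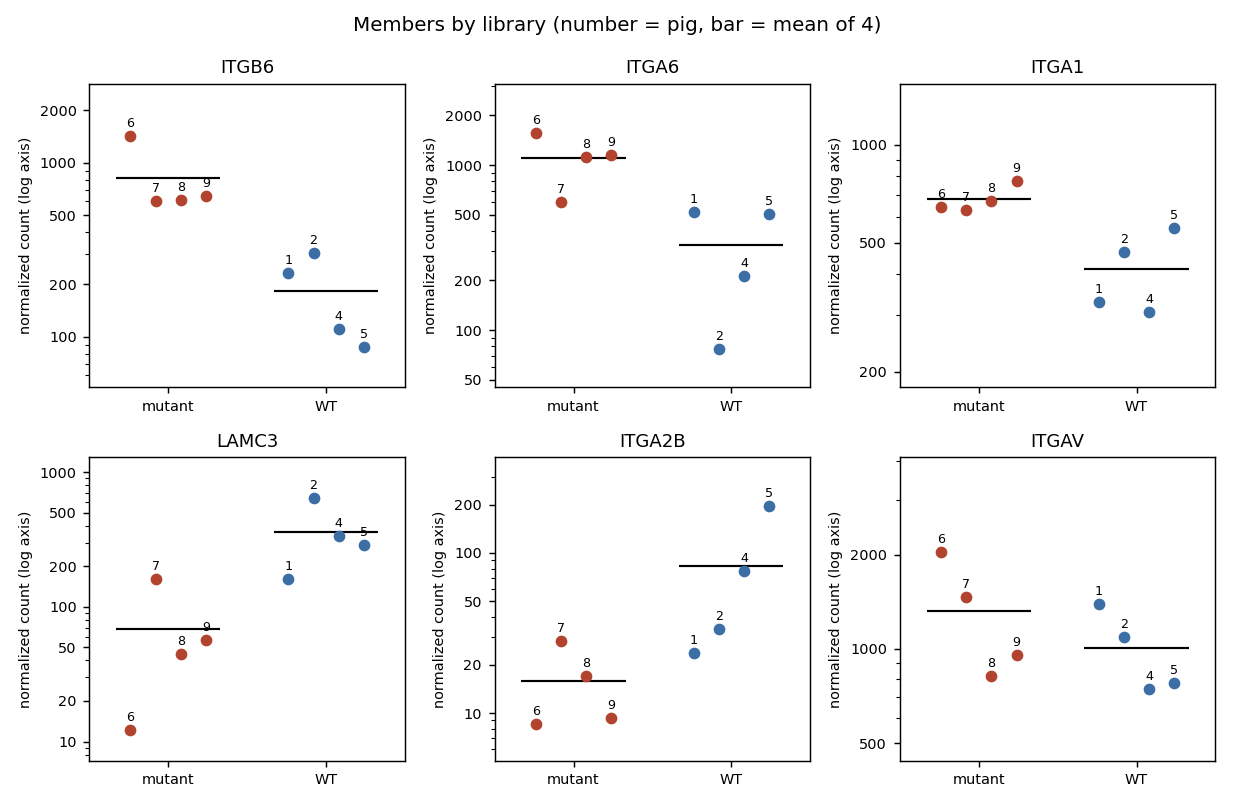
Normalized counts (log axis) of 6 genes in each library, mutant left and WT right, with the pig number at each point and a bar at the arithmetic mean of 4. ITGB6, ITGA6 and ITGA1 lie higher in each mutant library than in any WT library, LAMC3 lies lower with pigs 7 and 1 nearly level, and ITGA2B and ITGAV overlap.

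ITGAV, whose product is the alpha chain that beta 6 needs, overlapped between the groups. It had 2048, 1469, 817 and 959 normalized counts in mutant pigs 6, 7, 8 and 9, and 1396, 1095, 746 and 780 in WT pigs 1, 2, 4 and 5. Pigs 6 and 7 were high and pigs 8 and 9 lay among the WT values, so the log2 difference was 0.35 ± 0.34 (SE; limma adjusted p = 0.633). The within-library log2 ratio of ITGB6 to ITGAV, which hardly depends on the size factor, was -0.53, -1.28, -0.42 and -0.58 in mutant pigs 6, 7, 8 and 9, and -2.58, -1.85, -2.73 and -3.14 in WT pigs 1, 2, 4 and 5. The groups did not overlap, and the mean ratio was 1.88 higher in mutant libraries on the log2 scale (exact two-sided permutation p = 0.0286, or 0.0857 after adjustment over the 3 ratios tested, with all 4 mutant libraries above all 4 WT libraries). Without pigs 4 and 5 the ITGAV difference was 0.0029. With all libraries, the other beta chains that pair with the ITGAV product gave no difference beyond their spread, and ITGB1, described below, was among them. ITGB5, a vitronectin receptor chain, had 1037 to 1303 normalized counts in mutant and 407 to 1319 in WT libraries, a log2 difference of 0.56 ± 0.37 (SE; limma adjusted p = 0.498). ITGB8, which like ITGB6 can release TGF-beta, had 262, 185, 121 and 137 normalized counts in mutant pigs 6, 7, 8 and 9, and 134, 69.1, 0 and 86.1 in WT pigs 1, 2, 4 and 5. The 0 of pig 4 allows up to 14.5 normalized counts, that is 3 reads. Its log2 difference of 2.49 (limma adjusted p = 0.432) was 0.85 without pig 4. ITGB3, the beta chain of the platelet and vascular vitronectin receptors, ran from 91.6 to 170 in mutant libraries and from 24.2 to 649 in WT libraries.

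**Figure D3:**
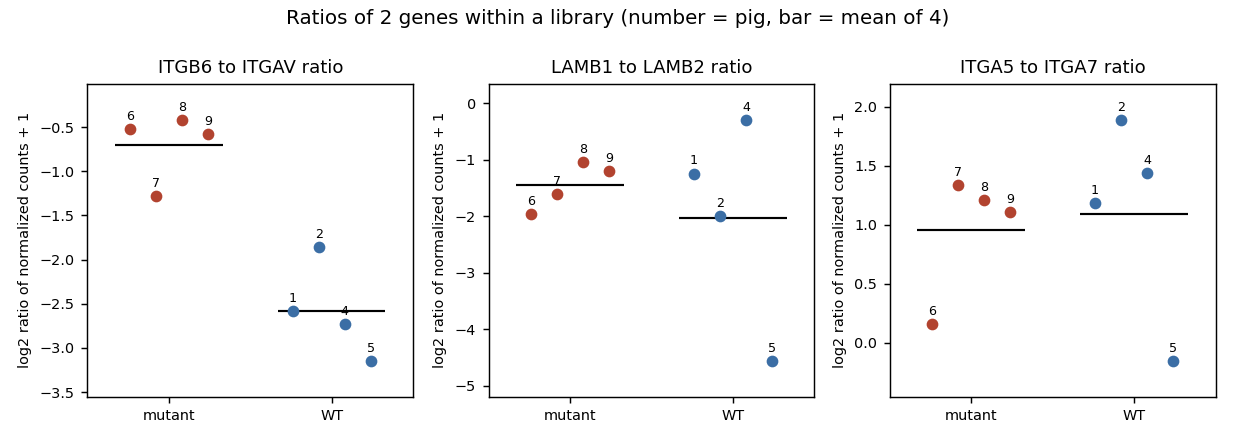
Log2 ratio of 2 genes within each library (normalized count + 1 of each), mutant left and WT right, with the pig number at each point and a bar at the mean of 4. The ITGB6 to ITGAV ratio separates the groups, while the LAMB1 to LAMB2 and ITGA5 to ITGA7 ratios overlap, with pig 5 lowest in both.

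Among the laminin receptor chains ITGA3, ITGA6, ITGA7 and ITGB4, the groups separated for ITGA6 only. ITGA1, whose groups also separated, is given below with the collagen receptor chains. ITGA6, which pairs with ITGB1 or ITGB4 and is abundant in endothelium, had 1556, 594, 1120 and 1149 normalized counts in mutant pigs 6, 7, 8 and 9, and 519, 76.9, 213 and 507 in WT pigs 1, 2, 4 and 5. The lowest mutant pig, 7, lay only a little above WT pigs 1 and 5. Means were 1105 ± 395 in mutant and 329 ± 220 in WT libraries (SD, n = 4 each). The difference of mean log2 values was 2.02 ± 0.59 (SE; adjusted p = 0.235 in limma). For ITGA6 the authors' deposited table has 1.74 with an adjusted p of 0.0499. DESeq2 called ITGA6 in 4 of 10 fits, and it did not do so without any one of the mutant pigs, without pig 4, or without pigs 4 and 5. The summed endothelial markers, with 10 of 10 in the table, overlapped at 17642 to 27411 normalized counts in mutant and 11538 to 46715 in WT libraries. ITGA7, the main muscle laminin receptor chain, ran from 2580 to 3183 in mutant and from 2032 to 3604 in WT libraries, with a log2 difference of -0.11 ± 0.25 (SE; 95% interval -0.68 to 0.46; limma adjusted p = 0.856). ITGA3, a laminin receptor chain known from epithelia, overlapped at 42.4 to 106 in mutant and 9.69 to 102 in WT libraries. ITGB4, the hemidesmosome chain, had 194, 56.9, 112 and 122 in mutant pigs 6, 7, 8 and 9, and 66.0, 8.64, 179 and 597 in WT pigs 1, 2, 4 and 5. Pig 5 thus held the highest and pig 2 the lowest ITGB4 value of all libraries.

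The 4 collagen receptor alpha chains differed in direction, and limma called none of them. With all libraries DESeq2 called none either, but it called ITGA10 and ITGA11 without pig 1 and ITGA1 without pig 5. ITGA1 had 642, 632, 672 and 771 normalized counts in mutant pigs 6, 7, 8 and 9, and 327, 469, 305 and 556 in WT pigs 1, 2, 4 and 5. The mutant values were tight and all above WT, where pig 5 came closest. The means were 679 ± 63.7 in mutant and 414 ± 119 in WT libraries (SD, n = 4 each), 1.64 times as high in mutant libraries, and the difference of mean log2 values was 0.75 ± 0.25 (SE; limma adjusted p = 0.270). ITGA11, a fibroblast collagen receptor chain, had 103, 106, 205 and 170 in mutant pigs 6, 7, 8 and 9, and 145, 40.6, 14.5 and 25.5 in WT pigs 1, 2, 4 and 5. WT pig 1 lay among the mutant values, and the value of pig 4 rests on 3 reads. The log2 difference was 1.82 ± 0.68 (SE; limma adjusted p = 0.304), and 0.85 without pigs 4 and 5. ITGA10, known from cartilage, went the other way, with 30.5, 89.6, 42.2 and 52.3 in mutant pigs 6, 7, 8 and 9, and 68.3, 75.2, 223 and 211 in WT pigs 1, 2, 4 and 5. The high WT values were those of pigs 4 and 5, and the log2 difference of -1.31 ± 0.56 (SE; limma adjusted p = 0.341) was -0.52 without both. ITGA2, the collagen receptor chain of platelets and epithelia, overlapped at 40.3 to 71.5 in mutant and 24.2 to 97.1 in WT libraries. Fibroblast markers, with 10 of 10 in the table, summed to 31447 to 77723 normalized counts in mutant libraries and to 8753 to 124844 in WT libraries.

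Fibronectin and related receptor chains overlapped between groups. ITGA5, the classical fibronectin receptor chain, had 3556, 6528, 6489 and 6515 normalized counts in mutant pigs 6, 7, 8 and 9, and 8120, 7521, 9752 and 3224 in WT pigs 1, 2, 4 and 5. Low values occurred in 1 pig of each group, pig 6 and pig 5, and the log2 difference was -0.24 ± 0.38 (SE; limma adjusted p = 0.777). The ITGA5 to ITGA7 ratio differed by -0.13 on the log2 scale (exact two-sided permutation p = 0.771). ITGA8, a chain of smooth muscle and mesangial cells that binds nephronectin, had 72.1, 19.0, 21.5 and 17.9 in mutant pigs 6, 7, 8 and 9, and 11.9, 8.64, 0 and 1569 in WT pigs 1, 2, 4 and 5. Pig 5 held 1293 ITGA8 reads, against 118 or fewer in each other library, and the log2 difference of 0.42 was 2.49 without it. DESeq2 with all libraries gave ITGA8 a log2 difference of -3.61 and no adjusted p. ITGA9, a tenascin receptor chain, ran from 405 to 614 in mutant and from 196 to 465 in WT libraries (log2 difference 0.57 ± 0.32 (SE); limma adjusted p = 0.438). ITGA4, which binds VCAM1 and fibronectin, was low throughout, at 11.4 to 33.6 in mutant and 0 to 26.2 in WT libraries. ITGB1, the shared beta chain of most of these receptors, had 7028, 5672, 6311 and 6498 in mutant pigs 6, 7, 8 and 9, and 5482, 4719, 6337 and 4055 in WT pigs 1, 2, 4 and 5. Only WT pig 4 reached the mutant range, and the log2 difference was 0.32 ± 0.23 (SE; limma adjusted p = 0.525).

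Chains of leukocytes and platelets were low and rested on few reads in pig 4. ITGAM, the alpha chain of the myeloid complement receptor, had 59.9, 131, 50.8 and 33.8 normalized counts in mutant pigs 6, 7, 8 and 9, and 13.5, 21.6, 0 and 94.6 in WT pigs 1, 2, 4 and 5. Its log2 difference of 2.21 (limma adjusted p = 0.439) was 0.97 without pig 4. Macrophage markers, with 10 of 10 in the table, summed to 1511 to 4124 in mutant and 797 to 5231 in WT libraries. They were highest in mutant pig 7 and WT pig 5, the pigs with the highest ITGAM in their groups. Summed neutrophil markers were also highest in pig 7 of the mutant libraries (465). Among WT libraries they were highest in pig 2 (2661, against 264 in pig 5), where ITGAM was 21.6. ITGB2, the beta chain shared by leukocyte integrins, ran from 99.6 to 332 in mutant and from 170 to 244 in WT libraries, and its log2 difference was 0.07 (limma adjusted p = 0.942). ITGAL, ITGB7 and ITGA4 each had 0 reads in pig 4, and their log2 differences of 1.76, 1.30 and 1.49 were 0.35, 0.23 and 0.47 without that pig. ITGAE, a chain of intraepithelial lymphocytes, overlapped at 96.5 to 174 in mutant and 116 to 176 in WT libraries.

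ITGA2B, the platelet fibrinogen receptor chain, was lower on average in mutant libraries. It had 8.55, 28.1, 17.2 and 9.27 normalized counts in mutant pigs 6, 7, 8 and 9, and 23.8, 33.7, 77.5 and 198 in WT pigs 1, 2, 4 and 5. Mutant pig 7 lay above WT pig 1, and pig 5 was far above all others. The log2 difference was -2.0 ± 0.81 (SE; 95% interval -3.82 to -0.19; adjusted p = 0.322 in limma), the authors' deposited table has -2.40 with an adjusted p of 0.0368, and DESeq2 called ITGA2B in 4 of 10 fits. In limma the difference was -1.43 without pig 5 and -0.96 without pigs 4 and 5. Platelet and megakaryocyte markers, with 7 of 10 in the table, summed to 102 to 125 normalized counts in mutant and 35.4 to 149 in WT libraries. In pig 4, 6 of these 7 had no reads, although ITGA2B had 16.

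Among laminin genes the groups separated for LAMC3, which was lower in mutant libraries, and overlapped for the other 9 tested. LAMC3, a gamma chain of less common laminins, had 12.2, 161, 44.3 and 56.3 normalized counts in mutant pigs 6, 7, 8 and 9, and 162, 643, 334 and 289 in WT pigs 1, 2, 4 and 5. Mutant pig 7 and WT pig 1 were practically level, with 212 and 204 reads. After TMM rescaling, and after scaling to reads of nuclear genes, the groups overlapped. Means were 68.5 ± 64.4 in mutant and 357 ± 204 in WT libraries (SD, n = 4 each). The difference of mean log2 values was -2.71 ± 0.72 (SE; 95% interval -4.33 to -1.09; adjusted p = 0.228 in limma). For LAMC3 the authors' deposited table has -2.38 with an adjusted p of 0.0229. DESeq2 called LAMC3 in 7 of 10 fits, and did not without pig 8, pig 9 or pig 2. Pig 6, the pig with the most ITGB6, had the least LAMC3.

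Of the alpha chains, LAMA5, found in vascular basement membranes, had 2007, 4109, 3765 and 3556 normalized counts in mutant pigs 6, 7, 8 and 9, and 3559, 2674, 10125 and 9421 in WT pigs 1, 2, 4 and 5. Pigs 4 and 5 alone lay above the mutant range, and the log2 difference of -0.76 ± 0.47 (SE; limma adjusted p = 0.472) was 0.07 without both. LAMA4, of vascular and myocyte basement membranes, ran from 2393 to 3399 in mutant libraries and from 1325 to 3257 in WT libraries, with pig 5 lowest. LAMA1 and LAMA3, known from embryonic and epithelial basement membranes, were at 8.35 to 31.8 in mutant libraries. In WT pigs 1, 2 and 4 they were at 20.7 or less, and in pig 5 they reached 97.1 and 184. LAMA2, the muscle alpha chain, was not analysed here.

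Beta and gamma chains of the common laminins overlapped as well. LAMB2 varied little, at 6042 to 7809 normalized counts in mutant and 6149 to 7989 in WT libraries, with a log2 difference of -0.14 ± 0.22 (SE; 95% interval -0.65 to 0.36; limma adjusted p = 0.773). LAMB1 had 1994, 2255, 3010 and 2617 in mutant pigs 6, 7, 8 and 9, and 2597, 1975, 6526 and 324 in WT pigs 1, 2, 4 and 5. The WT group thus held both the highest and the lowest LAMB1 value, and the direction of its difference depended on the fit (0.43 in limma, -0.21 in DESeq2 and -0.40 in limma without pig 5). The LAMB1 to LAMB2 ratio differed by 0.57 on the log2 scale (exact two-sided permutation p = 0.657, or 0.771 after adjustment over 3 ratios). LAMC1, the common gamma chain, had 6535, 9417, 9345 and 9251 in mutant pigs 6, 7, 8 and 9, and 6463, 6182, 10377 and 2878 in WT pigs 1, 2, 4 and 5, a log2 difference of 0.54 ± 0.38 (SE; limma adjusted p = 0.518). LAMB3, a chain of the epithelial laminin with LAMA3, ran from 10.7 to 15.9 in mutant libraries and from 8.74 to 27.9 in WT libraries. LAMB4 had 6 reads or fewer in every library and ITGAD 4 to 30.

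**Figure D4:**
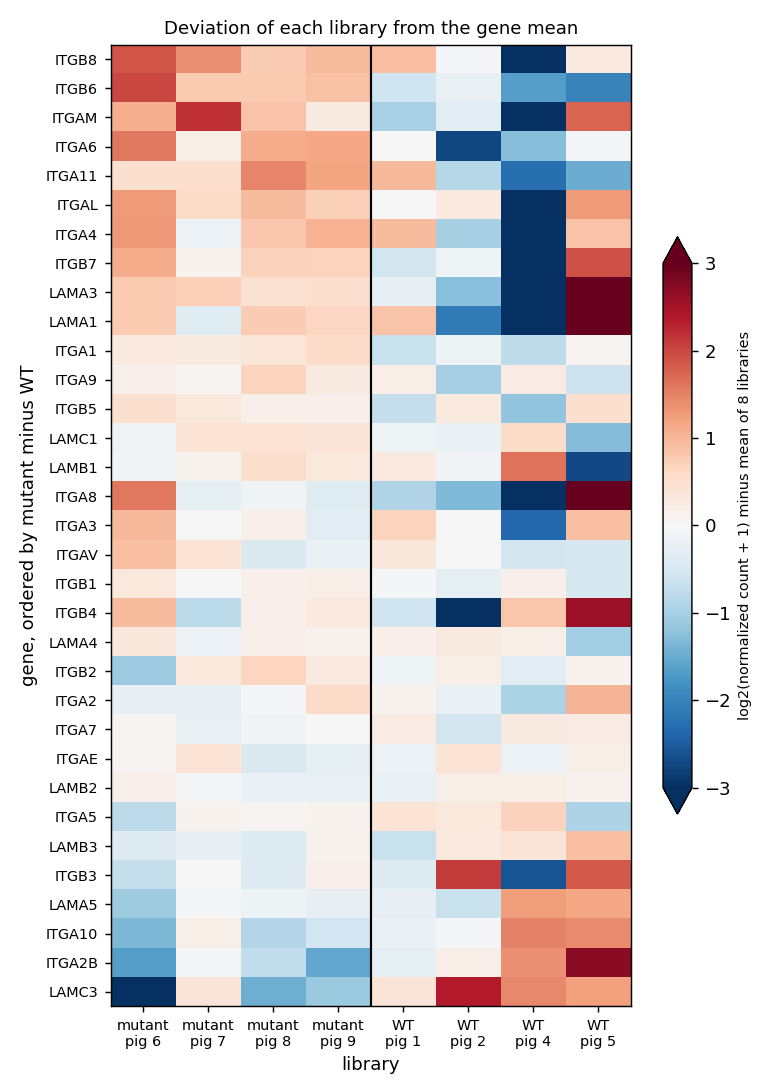
Deviation of log2(normalized count + 1) in each library (columns, mutant left and WT right) from the gene's mean over 8 libraries, for 33 of the 34 genes tested (rows, ordered by mutant minus WT; colours end at 3 either way). Over all 34, pig 4 is lowest for 15 genes and pig 5 highest for 11, while pigs 7, 8 and 9 together are highest for 5 and lowest for 2.

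The extreme values of these genes gathered in 3 libraries. Pig 5 had the highest level of 11 of the 34 genes tested and the lowest of 6, and pig 4 had the highest of 7 and the lowest of 15. Among mutant pigs, pig 6 had the highest level of 8 genes and the lowest of 5, against 5 and 2 for pigs 7, 8 and 9 together. In pig 4, 9 of the 36 genes had no reads, while 0 or 1 gene had none in each other library. In 27 of the 34 genes the sign of the difference was the same in 6 fits, namely limma with 4 scalings, DESeq2 and edgeR. The sign changed for ITGA2, ITGA3, ITGA8, ITGB4, LAMA1, LAMA3 and LAMB1, none of which had an unadjusted p under 0.05 in limma. Over these 6 fits the median of all genes ran from -0.06 in DESeq2 and -0.02 in edgeR to 0.21 in limma scaled to reads of nuclear genes.

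Adaptors that tie integrins to the actin cytoskeleton were measured from a list of 33 genes, all of which passed the filter. In limma 0 were called, with 5 higher (7.06% of all genes) and 1 lower (6.8% of all genes) at an unadjusted p under 0.05, and the list's median log2 difference was -0.04 beside 0.12 over all genes. TNS1, tensin 1, which links beta chain tails to actin, had 6817, 4318, 6040 and 7050 normalized counts in mutant pigs 6, 7, 8 and 9, and 1959, 2207, 2747 and 3426 in WT pigs 1, 2, 4 and 5. Every mutant value lay above every WT value, with a log2 difference of 1.24 ± 0.27 (SE; adjusted p = 0.193 in limma), and the authors' deposited table calls it higher (adjusted p = 0.0022). PARVB, beta parvin, a partner of integrin-linked kinase, was nearly level in mutant libraries at 477 to 504 and ran from 77.5 to 405 in WT libraries. VCL, vinculin, overlapped, with a log2 difference of 0.65 ± 0.27 (SE). ITGB1BP1, a negative regulator that binds the beta 1 tail, was lower, at 350 to 418 in mutant and 429 to 693 in WT libraries.

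Among 17 tested genes of dystroglycan and other laminin receptors outside the integrin family, 0 were called, and groups did not overlap for 4, of which 3 lay above WT (6.17% of all genes) and 1 below (5.22% of all genes). DAG1, dystroglycan, had 3814, 3015, 2909 and 3212 normalized counts in mutant pigs 6, 7, 8 and 9, and 2200, 2176, 1168 and 1390 in WT pigs 1, 2, 4 and 5. The separation was complete, with a log2 difference of 0.95 ± 0.27 (SE; adjusted p = 0.228 in limma), and the authors' deposited table calls it higher (adjusted p = 0.0471). SGCD, a sarcoglycan, was also above WT in every mutant library, with a log2 difference of 1.07. RPSA, a ribosomal protein also described as a laminin receptor, was below WT in every mutant library, with a log2 difference of -0.73. The list's median was 0.17.

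Of 19 tested basement membrane partners 0 were called (median 0.30). COL4A6, a type IV collagen chain, had 80.6, 122, 150 and 135 normalized counts in mutant pigs 6, 7, 8 and 9, and 16.7, 47.5, 67.8 and 17.0 in WT pigs 1, 2, 4 and 5, and the groups did not overlap. Its log2 difference was 1.90 ± 0.58 (SE; adjusted p = 0.249 in limma), and the authors' deposited table calls it higher (adjusted p = 0.0240). COL15A1, SMOC1 and HSPG2 (perlecan) overlapped, with log2 differences of 2.24, -1.84 and 0.56.

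Of 25 interstitial integrin ligands tested, 18 had a positive and 7 a negative log2 difference, with a median of 0.16, and 0 were called in limma. At an unadjusted p under 0.05 stood 0 higher (7.06% of all genes) and 4 lower (6.8% of all genes), and these 4 are described here. SPP1, osteopontin, an RGD ligand of alpha V integrins, had 45.8, 86.6, 90.1 and 72.2 normalized counts in mutant pigs 6, 7, 8 and 9, and 490, 129, 242 and 667 in WT pigs 1, 2, 4 and 5. The log2 difference was -2.14 ± 0.52 (SE; limma adjusted p = 0.206), with every mutant value below every WT value. CCN1, a matricellular ligand made on acute stimulation, had 1158, 678, 438 and 343 in mutant pigs 6, 7, 8 and 9, and 4116, 4624, 5707 and 1011 in WT pigs 1, 2, 4 and 5. Only pig 6 and pig 5 overlapped, and the log2 difference was -2.46 ± 0.57 (SE; limma adjusted p = 0.197). THBS1, thrombospondin 1, did not overlap and was 1368 to 3039 in mutant and 3123 to 24017 in WT libraries, the last value from pig 2. CCN2 differed by -1.26 ± 0.55 (SE). The authors' deposited table calls SPP1, THBS1 and CCN1 lower.

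Genes of TGF-beta release and response were measured because ITGB6 and ITGB8 products act on latent TGF-beta. Of 19 tested, 0 were called in limma, and groups did not overlap for 5, of which 4 lay below WT (5.22% of all genes) and 1 above (6.17% of all genes). The median was -0.08. LRRC32, which tethers latent TGF-beta to the cell surface, had 230, 257, 280 and 271 normalized counts in mutant pigs 6, 7, 8 and 9, and 752, 2249, 329 and 1236 in WT pigs 1, 2, 4 and 5. Its log2 difference was -1.81 ± 0.50 (SE; limma adjusted p = 0.228). TGFB3, a TGF-beta ligand, had 151, 153, 235 and 291 in mutant pigs 6, 7, 8 and 9, and 373, 404, 296 and 331 in WT pigs 1, 2, 4 and 5. Mutant pig 9 and WT pig 4 were nearly level, and the log2 difference was -0.80 ± 0.29 (SE; limma adjusted p = 0.290). NRROS, which anchors latent TGF-beta on myeloid cells, overlapped, with a log2 difference of -1.23. The authors' deposited table calls LRRC32 lower.

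Counter-receptors of leukocyte integrins showed 0 calls among 9 tested and no separation (median 0.14). ICAM1, the ligand of ITGAL and ITGAM products, had 537, 194, 267 and 232 normalized counts in mutant pigs 6, 7, 8 and 9, and 340, 8854, 683 and 1492 in WT pigs 1, 2, 4 and 5. Pig 2 stood far above the rest, and pig 2 also had the most summed neutrophil markers, with 7 of 10 in the table. They summed to 2661 normalized counts in pig 2, 14.7 to 465 in mutant libraries and 105 to 264 in the other WT libraries. The log2 difference of ICAM1 was -2.22 ± 0.86 (SE; adjusted p = 0.312 in limma), and the authors' deposited table calls it lower. MADCAM1, JAM2 and CD47 overlapped, with log2 differences of 1.42, 0.21 and 0.23.

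**Figure D5:**
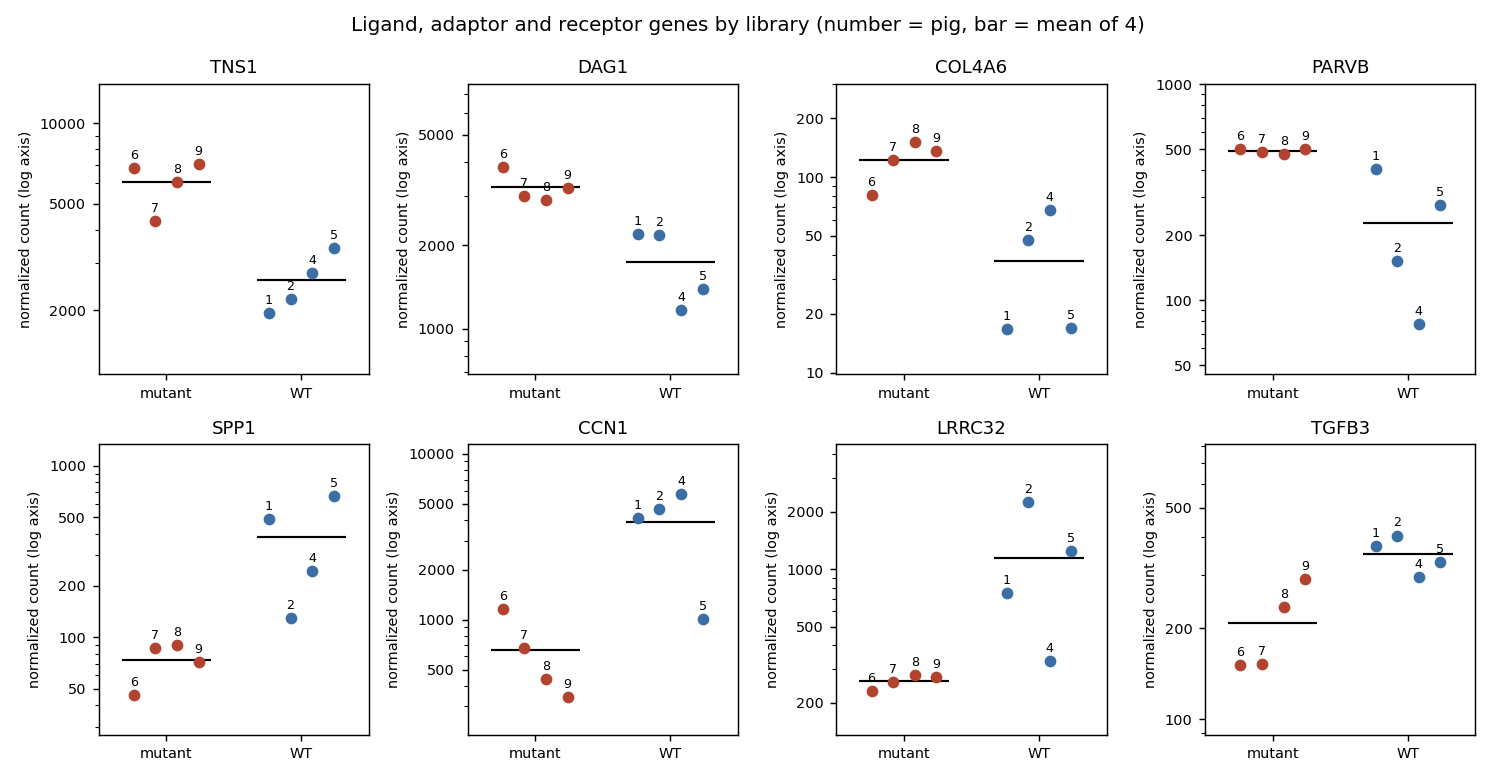
Normalized counts (log axis) of 8 ligand, adaptor and receptor genes in each library, mutant left and WT right, with the pig number at each point and a bar at the arithmetic mean of 4. TNS1, DAG1, COL4A6 and PARVB lie higher, and SPP1, LRRC32 and TGFB3 lower, in each mutant library than in any WT library, and CCN1 overlaps between pigs 6 and 5.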

How the data were processed

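Per the labels' protocols, polyadenylated RNA was made into NEBNext Ultra libraries. Per the file headers, the deposited signal per gene is a normalized count, a read count the authors divided by 1 size factor per library. The authors' log2 fold change, its standard error, the Wald score, the p-value and the adjusted p-value stand beside it in the deposited table. The submitters' processing notes name DESeq2, and they name GRCh38, a human build, for these pig samples. With aligner, counter, annotation and strand setting not given in the sources used here, coordinates are left out and overlapping or antisense genes could not be told apart.

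All values (100% within 1e-06 reads) were whole multiples of 1 read, so whole reads were recovered. Of 14720 rows 2 name an annotation source (0.392% to 0.853% of reads) and were left out. All 36 members matched a pig symbol. Genes with at least 10 normalized counts in at least 4 libraries were fitted in limma 3.58.1 (R 4.3.3, trended and robust prior) on log2(normalized count + 1), mutant minus WT. The added 1 shrinks the change of low genes. Where pig 4 had 0 reads, however, the difference could be larger than without that pig, as for ITGB8 (2.49, and 0.85 without pig 4). ITGB6 and 3 within-library ratios had exact two-sided permutation tests. A further ratio needed LAMA2, which was not analysed here. Alternatives were edgeR 4.0.16 (quasi-likelihood test) and DESeq2 1.42.0, both run on recovered reads, other scalings, pseudocounts of 0.5 and 5, other filters, a plain prior, and fits without libraries. The fit was tested on simulated data in which all genes had the same spread between libraries and no library stood apart except in depth. That test does not show how the fit performs on libraries as unlike as these. DESeq2 without libraries, and all counts of groups that do not overlap under alternatives, were added after seeing the data.

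Members, lists and tests were chosen with earlier results of these data known, ITGB6 included. Named members are ITGB6, ITGAV, those with groups that do not overlap, those called by the authors, the 12 with the smallest p, the most abundant of each family, and the genes of the ratios. From each list of partner genes up to 4 of those with the smallest p are named. Others are described by range or were named after their values were seen. A few genes that enter the counts are not reported here by name. The labels number the pigs separately but do not say that libraries came from separate extractions, so p-values measure only the spread between these samples.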

Additional observations from a re-analysis of the deposited data

Results flagged for a closer look

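Each group of 4 libraries was examined for a value far from the other 3 on the log2 scale, by Dixon's test at its 95% critical value, in the 34 genes tested. Of 68 groups 9 held such a value, and chance flags about 1 in 20 groups. Pig 6 gave 4 of the 9. Among mutant libraries it was highest for ITGB6 (1423 normalized counts) and ITGA8 (72.1) and lowest for ITGA5 (3556) and LAMC1 (6535). Mutant pig 7 was lowest for LAMA1 (8.35). Among WT libraries pig 2 was lowest for ITGA7 (2032), pig 5 for LAMA4 (1325), pig 1 for LAMB2 (6149) and pig 4 for ITGB8 (0, with no reads in its 2.53 M reads of nuclear genes).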

How the results depend on the processing

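No member was called in limma under any of 18 settings, while DESeq2 called 4 of the 34. In that DESeq2 fit ITGA8 and LAMA3 had no adjusted p. Without 1 library DESeq2 called 1 to 6 members. It called 2 without pig 6, 1 without pig 8, 1 without pig 9 and 6 without pig 1, where it called 333, 173, 128 and 1027 of all genes, against 582 with all libraries. Groups that do not overlap numbered 4, and 4 to 11 without 1 library, with 8 without pig 1, 11 without pig 5 and 13 without pigs 4 and 5 (WT replicates 3 and 4). Across all genes the share rises in those settings too, to 20.4% without pig 1, 18.1% without pig 5 and 29.2% without pigs 4 and 5. ITGB6, ITGA6 and ITGA1 were among them in all 13 settings, and LAMC3 in all but TMM rescaling and scaling to nuclear reads. The ITGB6 difference was 1.93 to 2.53 without 1 library. Without pig 6 it was 1.93 (exact permutation p = 0.0571), and without pigs 4 and 5 it was 1.52 (p = 0.0667, the smallest that 6 libraries allow). In the other settings the exact p was 0.0286. Of 358 values of the 19 named members under alternatives, 349 kept direction and side of the threshold, 4 were called by DESeq2 and 5 reversed. Reversed were ITGA7 (0.10) and LAMA5 (0.071) without pigs 4 and 5, and LAMB1 with DESeq2 (-0.21), with edgeR (-0.19) and without pig 5 (-0.40, in a range up to 1.04). The LAMB1 to LAMB2 ratio was -0.28 to 1.15 without 1 library and reversed without pig 5. The ITGA5 to ITGA7 ratio was -0.55 to 0.13 and reversed without pig 6 and without pig 2. The cause was not tested. The planned LAMA4 to LAMA2 ratio was not run. No paired analysis was possible because the labels give the groups no shared numbers. The median over laminin genes, 0.26, was -0.04 without pig 4 and -0.11 without pig 5. Low members are limited by the depth of pig 4.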
